A study of Brassica napus with 12 samples.

Results

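Of the 52962 gene identifiers counted in roots and mature leaves of oilseed rape, Brassica napus, whose genome joins an A and a C subgenome, 200 are described here because most of their reads lay on the strand opposite to the annotated gene. They were chosen by summing the forward and the reverse column of every identifier over all 12 libraries, keeping the 1434 identifiers with a forward sum of 120 or more, and taking the 200 with the highest share of forward reads. Wild-type plants of the variety Citizzen grew in aerated nutrient solution and received, from the emergence of leaf 4 and for 1 week, either sodium metasilicate at 1.7 mM Si or, as a control with the same sodium but no Si, NaCl at 3.4 mM. The groups were roots with Si, roots without Si, leaves with Si and leaves without Si, with 3 libraries each. Chloride came with NaCl to the no-Si plants only, so in both organs it cannot be told apart from the Si supply. In roots the labelled planting date was 21 March for all Si libraries and 12 February for all no-Si libraries. It cannot be told apart from the Si supply there either. The labelled harvest date was 28 March for all libraries. A planting on 21 March lies only 1 week before it, which is the length of the supply that began at leaf 4. The planting dates are given as labelled and could not be checked. In leaves, Si replicates 1 and 2 carried 21 March and all no-Si libraries 12 February. Leaf Si replicate 3 carried the planting date of the no-Si plants. The labels call the libraries biological replicates without saying how many plants each held, and p-values here measure the spread between these libraries. The identifiers carry no gene names, so the labelled organ could not be checked against marker genes. Where fewer cells of a type or less RNA per cell lie behind a lower level cannot be told apart in such bulk samples.

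In a stranded library the strand of each RNA molecule is kept, so reads of a gene and reads of the opposite strand at the same place are counted apart. Plants are known to make antisense transcripts, such as the COOLAIR transcripts at the flowering repressor gene FLC of Arabidopsis, and the ends of neighbouring genes on opposite strands can overlap. A gene model can also be drawn on the wrong strand. Which of these holds for a given identifier was not tested. Oilseed rape is known as a plant that accumulates little silicon compared with grasses.

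A root library held 15692020 to 19405616 reads on both strands together, and a leaf library 14500233 to 21950882. The reverse column is the sense strand for nearly all genes: the forward column held 0.531% of all reads, with 0.389% to 0.677% in root libraries and 0.355% to 0.723% in leaf libraries. Among the 44474 identifiers with 120 or more reads on both strands together, the median share of forward reads was 0.218% and the 99th percentile 26.2%. The 200 members had a median forward share of 97.9%, which the rule itself fixed. They held 218475 forward reads, 18.8% of all forward reads, and 14875 reverse reads.

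**Figure D1:**
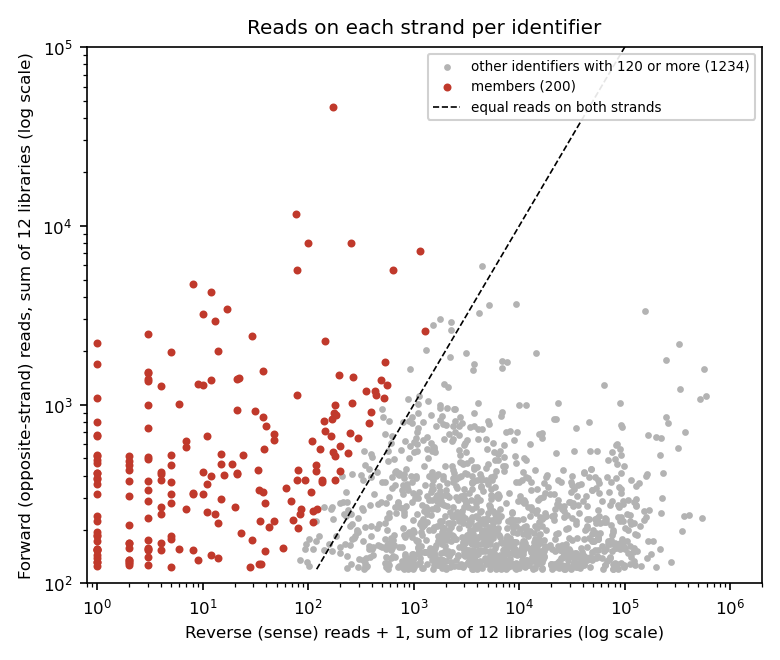
Forward reads (vertical) against reverse reads plus 1 (horizontal) per identifier, summed over 12 libraries, on log axes. The 200 members (red) lie above the dashed line of equal reads, and the other 1234 identifiers with 120 or more forward reads (grey) lie mostly below it.

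The values in the next sentences chose the members and are a description only. The forward sums of the members ran from 123 to 46126 reads with a median of 414, and their reverse sums from 0 to 1272 with a median of 10.5. All reads of 31 members were forward, 79 members had over 99% and 140 had over 90%. The last member, BnaC08g17270D, had 221 forward and 110 reverse reads (66.8% forward), and the first identifier left out, BnaC03g45810D, had 269 and 140 (65.8%). In all, 249 of the 1434 identifiers had more forward than reverse reads.

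The forward excess was present in every library for 139 members. Summed over an organ, 179 members were mostly forward in both organs, 7 in roots but not in leaves and 14 in leaves but not in roots. A library had between 177 and 183 members mostly forward in roots, and between 178 and 192 in leaves. An organ or library without a read on either strand counted as not mostly forward. Examples are the roots of BnaC08g32270D and BnaC04g42520D and the leaves of BnaC03g67920D. In each library 4 to 14 members had no forward read. The 139 members showed the pattern in all 12 libraries, though the rule had pooled these same counts. By this count 21 members were mostly forward in 1 organ only, which includes members without a read in the other organ.

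The 5 members with the highest rank had no reverse read in any library. BnaA08g20530D had 288, 280 and 202 forward reads in Si roots, 238, 256 and 278 in no-Si roots, 107, 147 and 123 in Si leaves, and 99, 82 and 100 in no-Si leaves. BnaC08g36250D had 158, 142 and 140 in Si roots, 132, 111 and 111 in no-Si roots, 49, 64 and 56 in Si leaves, and 49, 33 and 44 in no-Si leaves. In both, every root library was above every leaf library. BnaC07g33880D had 1 forward read over the 6 root libraries, in Si replicate 2, against 151, 84 and 132 reads in Si leaves and 183, 111 and 133 in no-Si leaves. BnaA09g39010D had 3, 0 and 4 in Si roots, 4, 2 and 1 in no-Si roots, 25, 164 and 133 in Si leaves, and 214, 66 and 61 in no-Si leaves. For both, every leaf library was above every root library. The fifth, BnaA08g11510D, was counted almost wholly in roots.

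By the letter in the identifier, 80 members (40%) lie in the A subgenome, derived from Brassica rapa, and 118 (59%) in the C subgenome, derived from Brassica oleracea, against 48.3% and 51.4% of all identifiers. The other 2 have neither letter. Members occur on 22 of the chromosome or unplaced names, with 22 members (11%) on C03, which holds 7.68% of all identifiers. Only 1 pair of members is numbered 10 apart, the usual step between consecutive identifiers. At least 1 neighbouring identifier (numbered 10 below or 10 above) was in the files for 154 members, giving 204 neighbouring identifiers that are not members. The neighbours had a median forward share of 0.224%, and 190 of them had 120 or more reverse reads. The identifiers of 3 members, BnaC05g04510D, BnaC02g33020D and BnaA01g30160D, are also symbols in RefSeq's gene list for the assembly Da-Ae, where all 3 are listed as protein coding without a named function.

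The deposited tables also have a column that ignores strand. Forward plus reverse reads were never fewer than the reads of that column, and they were more numerous in 10.5% of all identifiers. The excess is called shared reads here, since for most members with such reads it came in equal numbers at a second identifier. Where an identifier had reads in both columns, the excess was not assigned to 1 of them. In members without a reverse read it can only lie in the forward column, as in BnaC05g12210D, where all 173 forward reads were shared. The counting rule is not given in the sources used here, but a read over genes on both strands would leave such an excess if it is dropped as ambiguous where strand is ignored. The rule that chose the members did not use this measure itself. Shared reads in the forward column did count towards the forward sum and share that it used. The values that follow are therefore a description and not an independent test. They are set against identifiers with 120 or more reads on both strands together, not against those with 120 or more forward reads. Of the 200 members, 136 shared no read, and 48 (24%) shared 12 or more, against 4.11% of all identifiers with 120 or more reads. Shared reads were 4.29% of the members' reads and 0.0844% of those of all identifiers with 120 or more reads. More than 50% of the reads were shared in 18 members.

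For 41 of the 48 members, another identifier with the same chromosome or unplaced name had exactly the same number of shared reads in each of the 12 libraries. For the other 7 the numbers differed by at most 10 reads in all. The partner was the identifier with the smallest such difference among the 5 on each side, so a small difference is what the search selects. The partner was numbered 10 below the member in 27 cases and 10 above in 20, and the remaining partner, BnaA02g32620D, was numbered 70 below BnaA02g32690D. The partners were sense-strand genes, with 138 to 22656 reverse reads and a median of 3363. The largest case was BnaC05g11740D, with 1548 forward and 36 reverse reads, of which its partner BnaC05g11730D (19612 reverse reads) shared 1181. These shared reads numbered 19, 12 and 13 in Si roots, 15, 14 and 13 in no-Si roots, 128, 277 and 231 in Si leaves, and 234, 136 and 89 in no-Si leaves, and were the same in both identifiers. BnaA03g45240D and BnaA03g45230D shared 644 reads, BnaC01g25420D and BnaC01g25430D 585, BnaA01g29400D and BnaA01g29410D 567, and BnaAnng02900D and BnaAnng02910D 428. For these members the forward column of the member and the reverse column of its partner are not independent counts where they hold the same reads. Where an identifier had reads in both columns, the column of the shared reads was not tested. The ends of the gene models were not used here, so overlap that goes beyond an annotated gene was not measured.

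Roots were compared with leaves over all 12 libraries. Levels are given as CPM, counts scaled to a common library total with trimmed mean of M values (TMM) factors, and no level is compared between genes, since gene lengths were not given. All 200 members passed the filter on low counts, some of them through the reads of only 1 organ, so their number says nothing by itself. The forward column of 127 members differed between the organs, 46 higher and 81 lower in roots (quasi-likelihood test of edgeR, p adjusted after Benjamini-Hochberg, under 0.05). That is 63.5% of the members, against 76.6% of all 2594 forward features tested. The median log2 difference of the members was −0.27, and −1.22 for all forward features, but the members' median turned to 0.35 with the other scaling described next. It stayed at −0.27 with the 6 members that had no read in an entire organ set at their bound.

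The split of higher and lower calls depends on the scaling. With factors computed on the forward column alone, the median log2 difference of the forward features measured both ways moved by 0.62 towards roots, and 137 members were called, 82 higher and 55 lower in roots. Of the 2118 forward features tested in that scaling, 77.5% were called, 34.6% higher and 42.9% lower. In that scaling 38 members changed the sign of their difference, none of them beyond 0.61 on the log2 scale in the first scaling. All 46 members called higher in roots were called higher in both scalings, and 55 members were called lower in both. Root and leaf libraries did not overlap in 88 members (44%, 32 higher and 56 lower in roots), against 52.2% of all forward features. A log2 difference of 2 or more with a call was found in 60 members (30%) and in 51.7% of all forward features.

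The clearest root member was BnaA08g11510D. It had 284, 262 and 339 forward reads in Si roots and 231, 283 and 273 in no-Si roots, against 1, 2 and 0 in Si leaves and 0, 1 and 3 in no-Si leaves. The organs were far apart, at 12.6 ± 1.96 CPM in roots and 0.0825 ± 0.0788 CPM in leaves (SD, n = 6), with a log2 difference of 7.22 (SE 0.33; edgeR, Benjamini-Hochberg adjusted p = 1.69e-10). Its neighbour BnaA08g11500D had the opposite order in its reverse column, at 17.2 ± 0.793 CPM in roots and 78.0 ± 3.99 CPM in leaves (SD, n = 6). BnaCnng10470D had 8.18 to 13.8 CPM in roots, median 10.2, and 1.14 to 1.28 CPM in leaves, median 1.21. Its log2 difference was 3.10 (SE 0.17; edgeR, Benjamini-Hochberg adjusted p = 1.07e-09), while the reverse column of its neighbour BnaCnng10480D was at 3.42 ± 0.430 CPM in roots and 3.35 ± 0.590 CPM in leaves (SD, n = 6).

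Among leaf members, BnaUnng03090D had 1, 3 and 4 forward reads in Si roots and 1, 2 and 1 in no-Si roots, against 230, 508 and 300 in Si leaves and 503, 172 and 245 in no-Si leaves. It was at 0.0906 ± 0.0570 CPM in roots and 21.1 ± 5.70 CPM in leaves (SD, n = 6), a log2 difference of −7.84 (SE 0.30; edgeR, Benjamini-Hochberg adjusted p = 3.27e-11). BnaC07g19530D was at 0 to 0.0810 CPM in roots, median 0.0442, and at 5.07 to 9.83 CPM in leaves, median 6.83. Its log2 difference was −7.51 (SE 0.30; edgeR, Benjamini-Hochberg adjusted p = 5.01e-11). Its neighbours BnaC07g19520D and BnaC07g19540D were expressed on the sense strand in both organs, at 5.64 ± 1.34 and 16.7 ± 3.01 CPM in roots and at 8.65 ± 1.69 and 8.37 ± 1.69 CPM in leaves (SD, n = 6).

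There were 6 members that had no forward read in any library of an organ. BnaC03g67920D and BnaCnng03920D had 433 and 157 reads in roots and none in leaves. Setting the leaves at a floor of 3 reads over the 6 libraries, the root level was at least 97.0-fold higher for BnaC03g67920D and at least 35.2-fold higher for BnaCnng03920D. BnaC03g57880D, BnaC08g32270D, BnaA09g35720D and BnaC04g42520D had no read in roots, and 794, 375, 151 and 124 reads in leaves. Against the same floor in roots, these were at least 393.9-fold, 186.0-fold, 74.9-fold and 61.5-fold lower in roots. The floor covers counting error only.

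Among the 10 members with the highest mean forward level, BnaA09g03960D alone held 21.1% of the members' forward reads, with 3031, 2612 and 2988 reads in Si roots, 2544, 2163 and 2365 in no-Si roots, 3570, 5690 and 6487 in Si leaves, and 6257, 3362 and 5057 in no-Si leaves. It was at 118 ± 9.98 CPM in roots and 337 ± 40.8 CPM in leaves (SD, n = 6; log2 difference −1.52, SE 0.11), with every leaf library above every root library. Its reverse column was at 0.624 ± 0.230 CPM in roots and 0.921 ± 0.234 CPM in leaves. The sense strand of BnaA09g03950D, numbered next to it, was also lower in roots, at 0.683 ± 0.253 CPM against 14.1 ± 1.79 CPM in leaves (SD, n = 6; log2 difference −4.36).

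BnaC05g00290D was at 45.4 to 51.9 CPM in roots (median 47.2) and 49.7 to 68.7 CPM in leaves (median 60.4), which overlap. It was called lower in roots with a log2 difference of −0.32 (edgeR, Benjamini-Hochberg adjusted p = 0.00429), but with factors from the forward column alone its difference was 0.29 and was not called. BnaCnng16660D overlapped as well, at 20.2 to 22.8 CPM in roots (median 21.6) and 18.7 to 22.2 CPM in leaves (median 20.3), with a log2 difference of 0.07 (SE 0.08) and no call. BnaC07g06500D did so too, at 28.3 to 43.5 CPM in roots and 27.1 to 41.0 CPM in leaves, with no call. Scaled on the forward column alone, these 2 members were called higher in roots (log2 differences 0.68 and 0.69). BnaA03g56700D stood out on the root side, at 28.7 to 43.9 CPM in roots and 7.52 to 14.4 CPM in leaves (log2 difference 1.78, SE 0.16), while its neighbour BnaA03g56710D was lower in roots on the sense strand, at 28.2 ± 3.65 CPM against 185 ± 23.9 CPM in leaves (SD, n = 6). BnaAnng19620D, at 17.9 to 40.7 CPM in roots and 25.9 to 72.6 CPM in leaves, overlapped between organs and was called lower in roots (log2 difference −1.03, SE 0.26), though not with the forward column scaled alone (−0.40). BnaC04g10550D and BnaC05g21310D also overlapped and were not called, with log2 differences of −0.25 (SE 0.21) and −0.70 (SE 0.42). The reverse columns of these 7 members held between 7 reads (BnaCnng16660D) and 254 reads (BnaC07g06500D) over the 12 libraries.

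The sense strands next to these members had organ patterns of their own. BnaC05g00280D, numbered below BnaC05g00290D, was at 29.4 ± 1.53 CPM in roots and 30.4 ± 2.02 CPM in leaves, while BnaC05g00300D above it was at 13.7 ± 0.984 CPM in roots and 170 ± 12.1 CPM in leaves (SD, n = 6). On the 2 sides of BnaC05g21310D, BnaC05g21300D was lower in roots (log2 difference −2.26) and BnaC05g21320D higher (0.49). BnaAnng19630D, next to BnaAnng19620D, was lower in roots by a log2 difference of −0.28, and BnaC07g06490D, next to BnaC07g06500D, by −0.60. BnaCnng16650D, next to BnaCnng16660D, was at 4.81 ± 0.775 CPM in roots and 5.66 ± 0.925 CPM in leaves (SD, n = 6) and was not called.

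**Figure D2:**
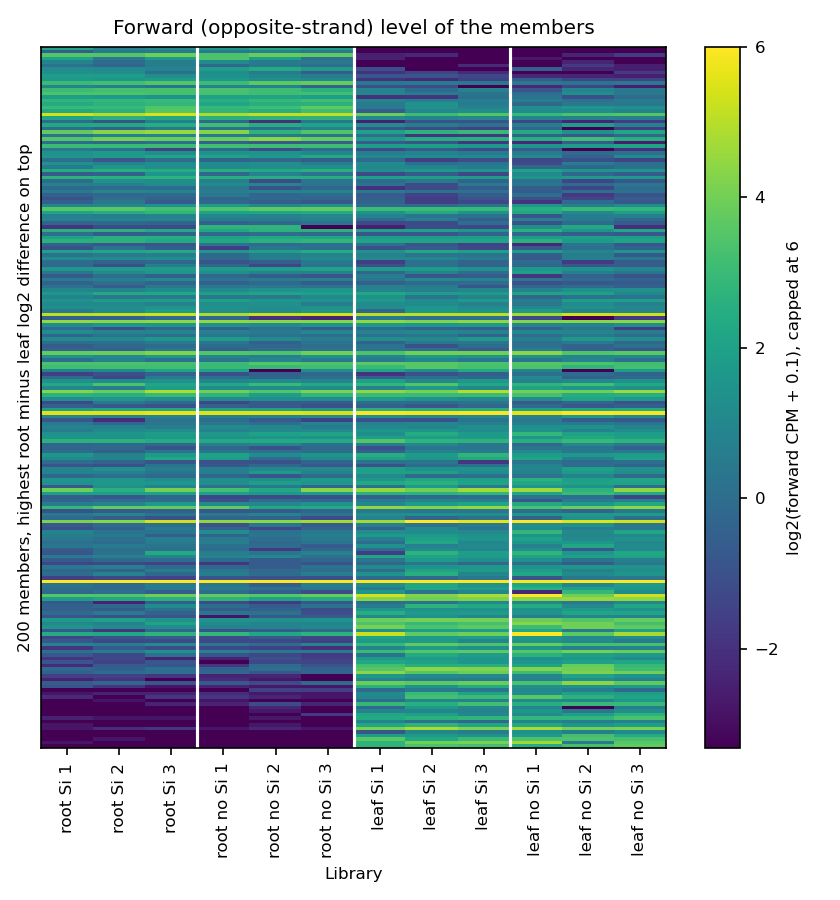
Forward level of the 200 members (rows, sorted by the root minus leaf log2 difference, highest on top) in the 12 libraries (columns), as log2 of CPM plus 0.1, capped at 6. The 18 members called higher in roots by a log2 difference of 2 or more lie at the top and the 42 called lower by as much at the bottom.

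Summed over the 200 members, the forward level was 796 ± 88.5 CPM in Si roots and 751 ± 24.8 CPM in no-Si roots, and 1213 ± 74.3 CPM in Si leaves and 1328 ± 236 CPM in no-Si leaves (SD, n = 3). The no-Si leaf sum rested on replicate 1, at 1599 CPM, where the other 2 no-Si leaf libraries were at 1162 and 1224 CPM. Without BnaAnng10090D and BnaC07g18010D, which were high in that library, the sums were 1162 ± 94.2 CPM in Si leaves and 1169 ± 41.6 CPM in no-Si leaves (SD, n = 3). All root libraries, at 727 to 898 CPM, were below all leaf libraries, at 1137 to 1599 CPM, but this separation depends on the TMM factors. Per library total without them the organs overlapped, at 917 to 1184 counts on the same scale in roots and 839 to 1293 in leaves. As a share of all forward reads of a library they overlapped as well, with a mean of 21.0% ± 2.38 in roots and 17.9% ± 2.94 in leaves (SD, n = 6). The median member had a mean of 1.39 CPM in roots and 2.17 CPM in leaves.

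The reverse column of the same identifiers was low. It could be tested for 49 members, of which 31 differed between the organs, 12 higher and 19 lower in roots (63.3%, edgeR, Benjamini-Hochberg adjusted p under 0.05), against 76.9% of all 45222 reverse features, 39.3% higher and 37.6% lower. Of the 36 members with 120 or more reverse reads, 17 were called in both columns. In 8 of these the 2 strands differed in the same direction, and in 9 in opposite directions.

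Whether the balance of the 2 strands differed between organs was tested within libraries, as the root minus leaf difference in log2 of forward over reverse. The rule used the pooled share only, though a pooled share near 100% leaves little room for a change: 31 members had no reverse read. The balance differed in 75 members, 32 towards the forward strand in roots and 43 towards the forward strand in leaves (37.5%), against 54.3% of all 1434 identifiers with 120 or more forward reads.

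BnaA10g27940D was mostly forward in roots and mostly reverse in leaves. It had 336, 464 and 518 forward reads in Si roots and 430, 132 and 226 in no-Si roots, against 53, 114 and 125 in Si leaves and 89, 27 and 68 in no-Si leaves. Its reverse reads were 9 to 19 in every root library and 131 to 243 in every leaf library, so that 95.9% of its reads were forward in roots and 28.7% in leaves (balance difference 5.85, SE 0.43; edgeR, Benjamini-Hochberg adjusted p = 7.97e-12). BnaC06g34520D had a forward level that was called higher in roots only with the forward column scaled alone, at 4.27 ± 0.909 CPM in roots and 3.22 ± 1.02 CPM in leaves, while its reverse level was 0.120 ± 0.139 CPM in roots and 1.85 ± 0.825 CPM in leaves (SD, n = 6; balance difference 4.25, SE 0.51). It shared 393 of its reads with BnaC06g34510D, with 52, 48 and 47 in Si roots and 28, 35 and 43 in no-Si roots.

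BnaC01g26150D went the other way. It had 41, 34 and 47 forward reads in Si roots, 26, 17 and 35 in no-Si roots, 93, 235 and 171 in Si leaves, and 252, 101 and 137 in no-Si leaves. Its reverse reads were 56 to 87 in root libraries and 4 to 12 in leaf libraries, which gave 33.7% forward in roots and 96.5% in leaves (balance difference −5.75, SE 0.34; edgeR, Benjamini-Hochberg adjusted p = 1.62e-14). BnaA01g29400D had a single forward read in the 6 root libraries, in Si replicate 1, and 84, 291 and 285 in Si leaves, with 452, 14 and 165 in no-Si leaves. Its reverse column had 50 to 73 reads in root libraries and 17 to 43 in leaf libraries, and 567 of its reads were shared with BnaA01g29410D, whose sense level was 0.482 ± 0.437 CPM in roots and 253 ± 79.1 CPM in leaves (SD, n = 6).

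**Figure D3:**
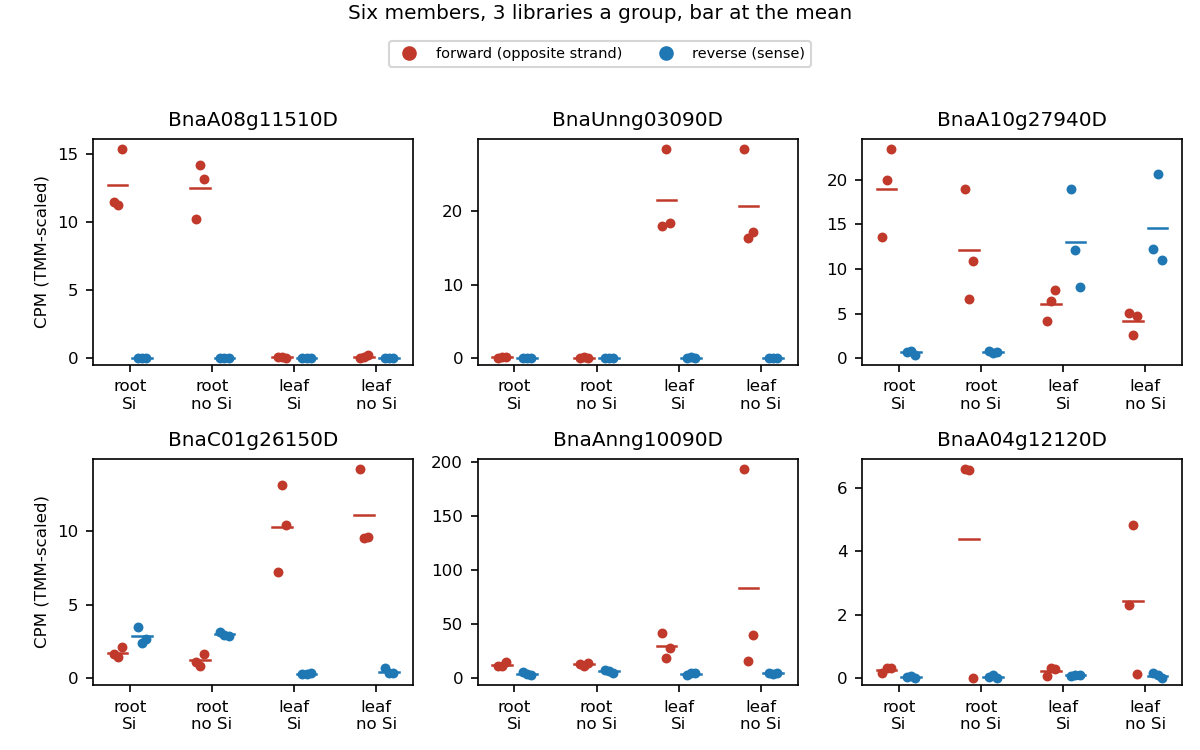
CPM of the forward (red) and reverse (blue) column in each library for 6 members, by group; each point is 1 of 3 libraries and the bar is their mean. BnaA08g11510D is seen in roots and BnaUnng03090D in leaves, BnaA10g27940D and BnaC01g26150D exchange strands between organs, BnaAnng10090D has 1 high no-Si leaf library at 193 CPM, and BnaA04g12120D is seen in no-Si replicates 1 and 2 of both organs.

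The reverse column of the neighbouring identifiers was tested by organ for 191 of the 204. Of these, 146 were called, 60 higher and 86 lower in roots (76.4%, against 76.9% of all reverse features). For the 48 pairs that share reads, the member's forward column and the partner's reverse column were both called in 27, and all 27 differed in the same direction. Since shared reads count in both columns, they were also taken out of both columns, down to 0 where they exceeded the member's forward reads, as in some library of 2 pairs. Of the 27 pairs that kept 120 or more forward reads in the member, the mean root minus leaf differences of the remaining reads had the same sign in 21 and opposite signs in 6. The 15 of these that were called in both columns with all reads kept the same sign. These 15 were chosen by calls that counted the shared reads in both columns, so their equal sign adds nothing to the 21 and 6. For the 143 other pairs of member and neighbour, which are not paired by 12 or more shared reads, with 120 or more reverse reads in the neighbour, both were called in 78, with 40 in the same direction and 38 in opposite directions.

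Single pairs show both patterns. BnaC05g11740D and its read-sharing partner BnaC05g11730D had log2 differences of −4.28 and −4.35. BnaA09g06080D and BnaA09g06070D, which share 352 reads, had 3.38 and 4.51. With the shared reads taken out, 367 reads remained in BnaC05g11740D, and the mean root minus leaf log2 differences of that pair were −4.37 and −4.31. In BnaA09g06080D only 47 reads remained, with 1.22 against 4.60 in its partner, so the likeness of that pair rests largely on the same reads. BnaA09g39010D, one of the members with no reverse read, was at 0.105 ± 0.0715 CPM in roots and 6.98 ± 3.62 CPM in leaves, and its partner BnaA09g39000D, with which it shares 350 reads, at 2.69 ± 0.550 CPM in roots and 58.6 ± 9.55 CPM in leaves (SD, n = 6). BnaC07g33880D had 5 shared reads in all, yet its log2 difference of −9.57 stood beside −10.27 in the sense column of BnaC07g33890D, and BnaC08g32270D at −9.31 beside −9.47 in BnaC08g32280D without a shared read. BnaA08g20530D went against its neighbour: it was at 11.6 ± 1.56 CPM in roots and 7.41 ± 1.01 CPM in leaves, and the sense column of BnaA08g20540D at 17.5 ± 2.25 CPM in roots and 987 ± 58.8 CPM in leaves (SD, n = 6).

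**Figure D4:**
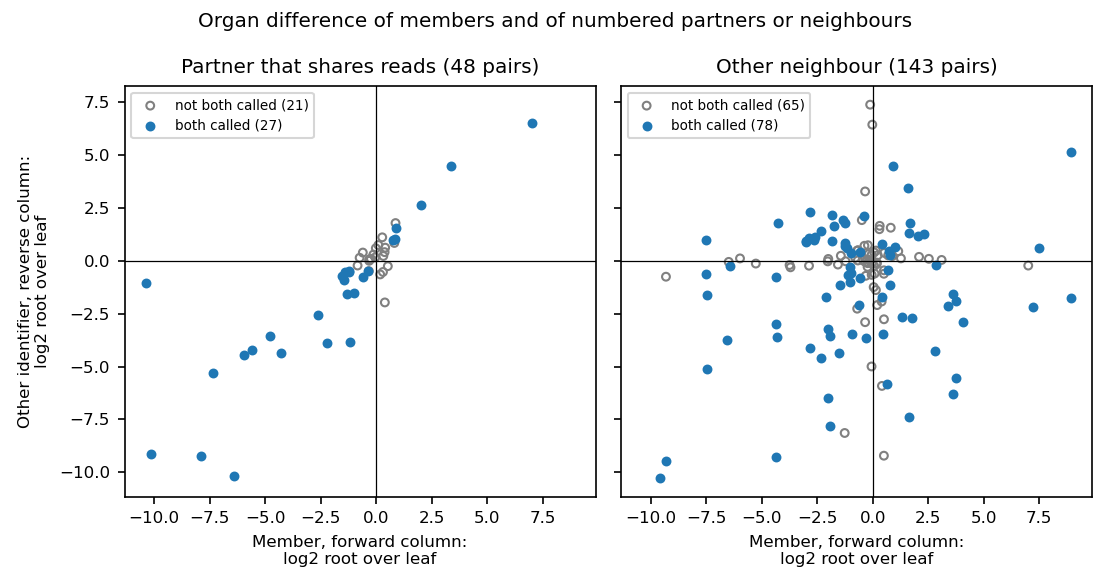
Log2 root over leaf of the member's forward column (horizontal) and of the other identifier's reverse column (vertical). Left are the partners of the 48 members with 12 or more shared reads, and right 143 other neighbours. Filled points are pairs with both called: on the left all 27 lie in the 2 quadrants of equal sign, on the right 40 do and 38 do not.

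Within an organ the likeness of member and neighbour is given as a description. Over the 6 leaf libraries the median Pearson correlation of log2 CPM was 0.40 for the 48 read-sharing pairs and −0.02 for the 143 other pairs. Over the 6 root libraries the medians were 0.05 and 0.11. These medians describe pairs that have library depth and the forward share of the library in common.

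Si was compared with no Si in roots for the 171 members that passed the filter there. The test called none of them, nor any of the 1242 forward features tested (0%, edgeR, Benjamini-Hochberg adjusted p under 0.05). An unadjusted p under 0.05 was reached by 4 members, 1 higher and 3 lower with Si, which is 2.34% against 5.88% of all forward features. DESeq2 called 1 member, BnaAnng11900D. The median log2 difference was 0.07 for the members and 0.01 for all forward features. Si and no-Si root libraries did not overlap in 15 members (8.77%, against 11% of all forward features).

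BnaAnng11900D had 54, 49 and 38 forward reads in Si roots against 82, 104 and 69 in no-Si roots, and 5, 0 and 0 in Si leaves against 11, 1 and 1 in no-Si leaves. All 3 Si roots were below all 3 no-Si roots, with a log2 difference of −1.01 (SE 0.22; edgeR, unadjusted p = 0.00121, Benjamini-Hochberg adjusted p = 0.27; adjusted p = 0.0439 with DESeq2). It had no reverse read, and neither strand of its neighbour BnaAnng11890D had any. BnaA06g21400D had 18, 18 and 17 reads in Si roots against 33, 36 and 20 in no-Si roots (log2 difference −0.89, SE 0.31, edgeR adjusted p = 0.442). On the other side, BnaC04g51060D had 91, 83 and 51 reads in Si roots against 56, 37 and 30 in no-Si roots, which overlap (log2 difference 0.72, SE 0.26, edgeR adjusted p = 0.465). BnaC03g62280D had 15, 11 and 17 reads in Si roots against 7, 7 and 8 in no-Si roots (log2 difference 0.81, SE 0.39, edgeR adjusted p = 0.616). Only its Si root libraries reached the filter's minimum count of 10, so it was tested through the group where it was high. It shared 97 reads with BnaC03g62270D, with 15, 10 and 11 in Si roots and 7, 7 and 8 in no-Si roots. Its difference is thus largely that of reads also counted at BnaC03g62270D.

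In leaves 170 members could be tested, and again none of them and none of the 1925 forward features was called (0%), by edgeR or, among the members, by DESeq2. An unadjusted p under 0.05 was reached by 9 members, 5 higher and 4 lower with Si (5.29%, against 3.27% of all forward features). The median log2 difference was 0.04 for the members and −0.15 for all forward features. Si and no-Si leaf libraries did not overlap in 17 members (10%, against 8.31%).

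BnaC02g48160D had 16, 18 and 16 forward reads in Si leaves against 6, 0 and 3 in no-Si leaves. Only its Si leaf libraries reached the filter's minimum count of 10, so it was tested through the group where it was high. The groups did not overlap, with a log2 difference of 2.34 (SE 0.63; edgeR, unadjusted p = 0.00539, Benjamini-Hochberg adjusted p = 1.00). In roots the same identifier had 16, 15 and 19 reads with Si against 17, 3 and 2 without. BnaC06g39560D had 25, 31 and 21 reads in Si leaves against 13, 8 and 15 in no-Si leaves (log2 difference 0.95, SE 0.34). BnaC08g18010D had 11, 16 and 18 reads in Si leaves against 53, 16 and 31 in no-Si leaves (log2 difference −1.24, SE 0.35). BnaA10g03440D had 130, 134 and 156 reads in Si leaves against 344, 168 and 134 in no-Si leaves (log2 difference −0.72, SE 0.27, and −0.47 without no-Si replicate 1). Scaled to CPM the Si leaves of BnaC08g18010D, at 0.858 to 1.10, lay below the no-Si leaves, at 1.52 to 3.00, whereas those of BnaA10g03440D overlapped, at 7.49 to 10.1 against 9.40 to 19.4.

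The difference of the Si effect between roots and leaves was tested over all 12 libraries. None of the 200 members and none of the 2594 forward features was called (0%, edgeR), 7 members reached an unadjusted p under 0.05 (3.5%, against 3.16%), and DESeq2 called none. The smallest p belonged to BnaA09g06080D and BnaA10g03440D on the side of a higher Si effect in roots (interaction log2 1.54, SE 0.56, and 1.18, SE 0.47), and BnaC04g39950D and BnaA06g32290D on the other (−4.27, SE 1.59, and −2.44, SE 0.97). The value of BnaA06g32290D was −4.81 without Si root replicate 3 and −1.56 without no-Si root replicate 2, and that of BnaA10g03440D was 0.69 without Si root replicate 3. BnaC04g39950D had 0, 0 and 0 forward reads in Si roots against 0, 5 and 5 in no-Si roots, and 11, 24 and 19 in Si leaves against 36, 15 and 12 in no-Si leaves. BnaA06g32290D had 0, 0 and 2 in Si roots against 2, 7 and 2 in no-Si roots, and 93, 105 and 146 in Si leaves against 103, 79 and 109 in no-Si leaves. BnaA09g06080D had 77, 66 and 76 in Si roots against 69, 47 and 39 in no-Si roots, and 2, 2 and 4 in Si leaves against 10, 3 and 4 in no-Si leaves. Each of the 3 was thus low in 1 organ, with at most 10 reads in any of its libraries. BnaA09g06080D shared 352 reads with BnaA09g06070D, with 71, 64 and 58 in Si roots and 56, 46 and 38 in no-Si roots. Most of its reads are thus also counted at BnaA09g06070D. The sense level there was 20.1 ± 1.67 CPM in Si roots and 20.7 ± 2.06 CPM in no-Si roots, and 0.810 ± 0.157 CPM in Si leaves and 0.986 ± 0.173 CPM in no-Si leaves (SD, n = 3).

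**Figure D5:**
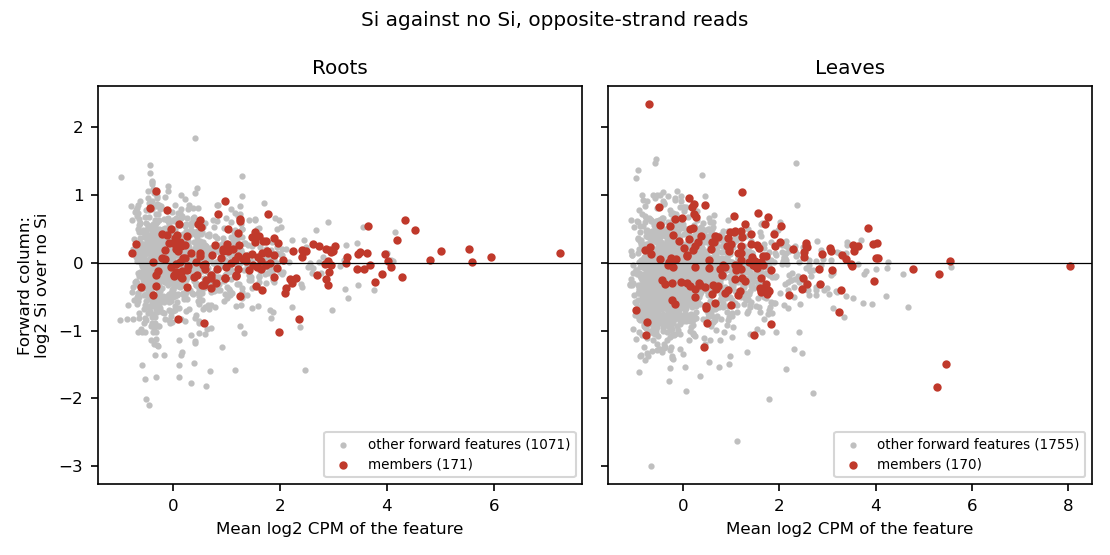
Log2 Si over no Si of the forward column (vertical) against the mean log2 CPM (horizontal) in roots (left, 171 members) and leaves (right, 170 members), members in red and other forward features in grey. The members centre near 0 (medians 0.07 in roots, 0.04 in leaves), and none was called by edgeR.

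The sense strand showed as little. In the reverse column of the same identifiers 35 members were tested in roots and 33 in leaves, and none was called by edgeR or DESeq2, with 4 (11.4%) and 1 (3.03%) at an unadjusted p under 0.05, against 8.84% and 4.02% of all reverse features. Among all reverse features the share called was 0.00235% in roots and 0.00244% in leaves. Of the neighbouring identifiers 175 were tested in roots and 181 in leaves, again with no call by either tool, and 9 and 10 reached an unadjusted p under 0.05. Next to BnaC04g51060D, the sense level of BnaC04g51050D was 6.12 ± 0.952 CPM in Si roots and 5.34 ± 0.565 CPM in no-Si roots (SD, n = 3). Next to BnaA06g21400D, that of BnaA06g21390D was 37.9 ± 0.256 CPM in Si roots and 38.2 ± 0.785 CPM in no-Si roots. Next to BnaC08g18010D, BnaC08g18000D was at 83.0 ± 8.38 CPM in Si leaves and 86.4 ± 5.94 CPM in no-Si leaves, and next to BnaC06g39560D, BnaC06g39570D was at 0.255 ± 0.225 CPM in Si leaves and 0.625 ± 0.188 CPM in no-Si leaves (SD, n = 3). None of these 4 neighbours was called.

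A few members varied within groups far more than between them, and were picked out after their values were seen. BnaA04g12120D had 4, 8 and 7 forward reads in Si roots against 149, 131 and 0 in no-Si roots, and 1, 6 and 5 in Si leaves against 41, 51 and 2 in no-Si leaves. It was high in no-Si replicates 1 and 2 of both organs and near 0 in the others, did not pass the filter in either organ, and its reverse column never exceeded 3 reads. Without no-Si replicate 3 it passed the filter in roots and was called lower with Si (log2 difference −4.56, edgeR adjusted p = 0.00986). Only the no-Si libraries reached the filter's minimum count of 10 there, so that call came through the group where it was high. BnaC06g41260D had 43, 49 and 93 reads in Si roots, 92, 0 and 47 in no-Si roots, 54, 41 and 82 in Si leaves, and 30, 0 and 52 in no-Si leaves, so no-Si replicate 2 was at 0 in both organs. BnaC02g43340D had 11, 59 and 31 reads in Si leaves against 32, 0 and 20 in no-Si leaves, with 0 again in no-Si replicate 2. Whether equal numbers in roots and leaves mark the same plants is not said in the labels.

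No-Si leaf replicate 1 stood apart for 2 members. BnaAnng10090D had 539, 339 and 463 forward reads in Si leaves against 3422, 167 and 570 in no-Si leaves, and BnaC07g18010D had 476, 236 and 256 in Si leaves against 3374, 128 and 387 in no-Si leaves. The sense level of BnaC07g18020D, next to BnaC07g18010D, was 19.9 ± 0.508 CPM in Si leaves and 29.7 ± 6.21 CPM in no-Si leaves (SD, n = 3). On the CPM scale that library was at 193 and 191, where the other 5 leaf libraries were at 15.8 to 42.0 and at 12.1 to 37.1. The reverse columns of both were not raised there, at 86 and 63 reads, within the range of 40 to 88 and 30 to 60 reads of the other leaf libraries or just above it. With that library the log2 difference between Si and no Si in leaves was −1.50 (SE 0.92) and −1.83 (SE 1.08), and without it 0.07 and 0.14. The organ difference was −1.94 and −2.82 with it and −1.14 and −1.83 without it, called lower in roots each time. Among members at 1 CPM or more in some library of an organ, a 20-fold range within that organ was found in 2 of 145 (1.38%) in roots and 6 of 172 (3.49%) in leaves. The shares were 2.71% and 6.77% of the other forward features at that level, and 0.693% and 1.25% of the reverse features. Reads of near-identical A and C copies can be counted at the wrong copy or lost, which makes the level of a single copy uncertain.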

How the data were processed

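Libraries were poly(A)-selected, paired-end and stranded (TruSeq), per the labels' protocols. For each library the authors deposited whole-number counts per gene identifier in 3 columns: without regard to strand, forward and reverse. Reads that were unmapped, multimapping, outside genes or ambiguous stand in 4 rows of their own, per the file headers, and were left out. The submitters' processing notes name TopHat2 and Bowtie2 and give no version. Not given in the sources used here are genome build, annotation and counting program. The forward and reverse counts of each identifier were stacked as separate features and tested together with edgeR 4.0.16 (R 4.3.3): TMM factors (1.24 to 1.32 in roots, 0.729 to 0.837 in leaves), filterByExpr with a minimum count of 10, robust quasi-likelihood fits, two-sided tests, and Benjamini-Hochberg adjustment over all features at 0.05. Si was compared within each organ, and organ and interaction over all 12 libraries. The balance test set forward against reverse counts within libraries. CPM refer to the TMM-scaled total.

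The fits were tested on simulated data. Alternatives were DESeq2 1.42.0, relative log expression (RLE) factors, the forward column alone, other filters, the removal of each library, a planting date term in leaves, a replicate block, a forward sum of at least 240, and other neighbours. Other scalings of the summed level were chosen after seeing the data. Replicates of a group differed by more than sampling noise (chi-square per degree of freedom 5.55 to 40.6), so each library counted as a sample. Deviations of same-numbered libraries correlated at 0.11 to 0.16 between roots and leaves with Si, at 0.03, 0.35 and 0.14 without Si, at 0.07 to 0.20 between Si and no Si in roots, and at −0.08 to 0.26 in leaves. Not all exceeded 0.1, so the numbers were not taken as pairs.

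The members and lists were chosen with earlier results of these data known. Named are the 5 members of highest rank and the members at the threshold, the 10 of highest mean forward level, the 2 with the smallest p per direction and comparison, and the reverse columns of these and of their neighbours. Members named for shared reads, an organ at 0 or their spread were added after their values were seen. Lists of leaf and root genes by description could not be tested, since the identifiers carry no description.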

Additional observations from a re-analysis of the deposited data

How the results depend on the processing

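Of 169 recomputed counts of calls, 160 stayed within 1.5 times the reported ones. Si in roots, with 0 members called, gave 1 with DESeq2 (BnaAnng11900D), 2 without a filter on low counts (BnaAnng11900D and BnaC04g10550D), and 0 to 1 when a library was left out, the 1 being BnaA04g12120D without no-Si replicate 3. Without a filter, the reverse column of the members gave 60 calls by organ, where 31 were reported, and 2 by Si in roots, and the neighbours gave 3 by Si in roots and 1 in leaves, where 0 were reported. With a forward sum of at least 240, which takes in identifiers with more reverse reads, the reverse column of the members gave 70 calls by organ. With the nearest identifier on each side as neighbours, a longer list of 396, 266 neighbours were called by organ, where 146 were reported. Leaving out a library gave 117 to 131 members called by organ in the forward column, 34 to 38 in the reverse column, 143 to 152 neighbours and 68 to 75 members by balance. It gave 0 for Si in leaves, the interaction and the Si comparisons of the reverse columns. The replicate block gave 130 members by organ, where 127 were reported, and 0 for Si in roots, Si in leaves and the interaction. As a hint from the data and not from the design, 9 of the 12 libraries correlated best with their own number in the other organ. The 20 log2 differences named per comparison kept their sign in all 299 recomputed values, and 3 moved by over 1.5 times without some library. Of the 20, BnaAnng11900D in roots, which was not among those 3, passed the threshold with DESeq2 and without a filter. The unfiltered and longer lists hold more identifiers, and the cause of the other shifts was not tested. Counts of a few reads per library limit the precision of low members.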
